A study of Mus musculus with 2 samples.

Results

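The p200 family, also called the PYHIN or HIN family, is a cluster of interferon-inducible genes whose products bind DNA. It was followed here through 8 mouse genes, Ifi203, Ifi204, Ifi207, Ifi209, Ifi211, Ifi213, Mndal and Aim2, which were chosen by symbol from a fixed list, out of 32286 features in the count matrices. The list was drawn up with results of these data in view, because Ifi204 was among the lowest genes of monocytes in the library with the MYC transgene, so the difference of Ifi204 in monocytes is a description and not a finding. All 8 genes had UMIs in both libraries. The cells were hematopoietic cells of mouse bone marrow, profiled with a droplet-based 3′ kit in 2 libraries, 1 per genotype. The control library carried Mx1Cre+/-;Rosa26+/+, and the MYC library Mx1Cre+/-;Rosa26LSL-MYC/LSL-MYC, so that both carried Mx1-Cre, in which the interferon-inducible Mx1 promoter drives Cre, and differed in the MYC transgene that Cre releases from a stop cassette. The series compared marrow expression profiles after MYC overexpression in stem cells. Age, any agent given to induce Cre and the time after it were not given in the sources used here, nor was the number of animals behind each library. Poly(I:C), an agent often used to induce Mx1-Cre, itself raises interferon-inducible genes, so a difference in such an agent or in its timing cannot be told apart from genotype here.

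p200 proteins carry a C-terminal HIN domain, which binds double-stranded DNA without regard to its sequence, and most also carry an N-terminal pyrin domain, which joins them to partner proteins. AIM2 senses DNA in the cytosol and recruits the adaptor ASC, the product of Pycard, to activate caspase-1 in an inflammasome. IFI204 is the mouse protein often compared with human IFI16, which signals through STING to induce interferon, and interferon in turn raises the transcription of many genes of the family.

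In GRCm38 the family forms 1 block on chromosome 1, between 173350879 and 174031810 (680.9 kb), and all 13 protein-coding genes of that block belong to it. Aim2 (ENSMUSG00000037860) lies at one end, from 173350879 to 173466040 on the plus strand, and Ifi204 (ENSMUSG00000073489) from 173747293 to 173766943 on the minus strand. The GENCODE model of Mndal (ENSMUSG00000090272, 173849126 to 173942491) overlaps those of Ifi211 (ENSMUSG00000026536, 173896345 to 173913046) and Ifi203 (ENSMUSG00000039997, 173920407 to 173942672) on the same strand. The counts of these 3 genes could therefore have been split differently by another annotation. Among 50-base windows in the last 500 bases of the transcripts, Ifi211 shared 77.4% with Ifi205, Ifi209 63.4% with Ifi214, Mndal 22.0% with Ifi211 and Ifi213 12.6% with Ifi208, which makes their levels uncertain. Aim2, Ifi203, Ifi204 and Ifi207 shared none with another gene of the block.

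The promoters of several members hold a common short element, which is shown as a sequence feature that the choice of members did not use. Promoters of 7 of the 8 members, from 250 bases before to 50 bases after the start site, were found in the RefSeq table of GRCm38.p6; Ifi204 had no entry. The windows of 30 bases below are printed 5′ to 3′ on the strand of the gene, with GAAANNGAA, or for Ifi209 AAATCGAA, in capitals. The first is a core of the interferon-stimulated response element, and the second was picked after the sequences were seen.
Ifi203: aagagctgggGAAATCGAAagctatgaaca
Mndal: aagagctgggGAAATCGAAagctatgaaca
Ifi213: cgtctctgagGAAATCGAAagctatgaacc
Ifi207: cctagccaggGAAATCGAAaattaagaaca
Ifi211: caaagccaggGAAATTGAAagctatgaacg
Ifi209: atctctgagtAAATCGAAagagatgcactc
These windows lie at chr1:173942508-173942537 for Ifi203, chr1:173880204-173880233 for Mndal, chr1:173599326-173599355 for Ifi213, chr1:173741831-173741860 for Ifi207, chr1:173913064-173913093 for Ifi211 and chr1:173630771-173630800 for Ifi209, the last on the plus strand and the others on the minus strand. Ifi203 and Mndal share the same window of 30 bases, with the element 35 and 36 bases before the start sites. On either strand, GAAANNGAA was found in the promoters of 5 of 7 members (Ifi203, Ifi207, Ifi211, Ifi213 and Mndal), and in at least 1 promoter of 9.76% of all 27025 genes of the table (8.56% of its 32851 promoters). AAATCGAA was found in 5 of 7 members (Ifi203, Ifi207, Ifi209, Ifi213 and Mndal) and in 0.318% of all genes (0.271% of all promoters), and it overlaps the first motif in 4 of them. TTCNNNGAA, the core of the interferon-gamma-activated site, was found in 0 of 7 members and in 9.55% of all genes (8.30% of all promoters). Neither GAAANNGAA nor AAATCGAA was in the window of Aim2.

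The control library held 17073 barcodes and 131884603 unique molecular identifiers (UMIs), and the MYC library 14496 barcodes and 110012176 UMIs. After filters 14760 and 12434 cells were kept, with medians of 5321.5 and 6028 UMIs, and 97 barcodes occurred in both libraries. A feature named MYC had 286 UMIs in the MYC library and 0 in the other. Cells were grouped into classes from marker genes, so monocytes below means monocyte-like clusters, and likewise for the other names; 21.1% and 22.6% of the cells stayed unnamed. Levels are UMIs per 1000000 UMIs of the class (CPM), and differences are log2 ratios of CPM, MYC library over control library. Intervals are 95% intervals that cover counting error only. With 1 library per genotype no difference could be tested, and genotype and library cannot be told apart. A gene is called lower in a class where its log2 ratio, with 1 CPM added to both levels, was -1 or less and it had at least 50 UMIs over both libraries; classes with fewer than 100 cells in either library were not compared, and where a ratio is given for such a class or cluster it takes part in no call.

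Members differed in which cells carried them. Together the 8 genes in the control library reached 1064 CPM in monocytes, 666 in T or NK cells, 432 for B-lineage cells, 271 in stem or multipotent progenitors, 121 in basophils or mast cells, 73.6 in the neutrophil lineage and 43.6 in erythroid cells. No neighbours in that order had overlapping intervals. In the MYC library T or NK cells came first at 564 CPM and monocytes followed at 491, then the B lineage at 248 and progenitors at 226, whose intervals overlapped. Basophils or mast cells stood at 80.3 CPM, the neutrophil lineage at 40.0 and erythroid cells at 39.2, and the intervals of the last pair overlapped. This order pools stages that differ. Mature B cells alone stood at 758 CPM in the control library and 613 in the MYC library, and plasma cells at 114 and 103. Mature neutrophils alone stood at 228 and 89.1 CPM.

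**Figure D1:**
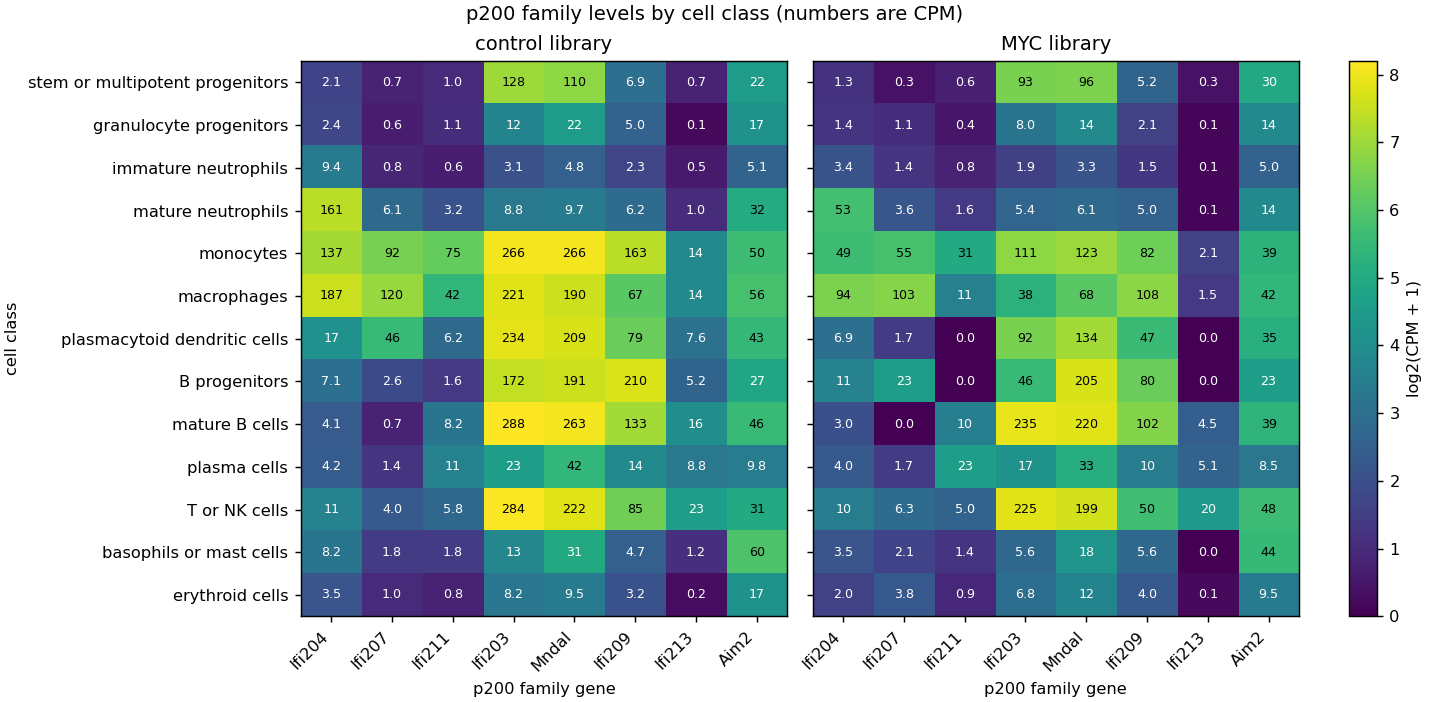
Level of each of the 8 genes (columns) in 13 cell classes (rows) in the control library (left) and the MYC library (right); numbers are CPM and colour is log2(CPM + 1). Ifi204, Ifi207 and Ifi211 were highest in myeloid classes, while Ifi203, Mndal and Ifi209 also reached over 80 CPM in control T or NK and mature B cells.

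Among the 7 classes compared, with the neutrophil stages pooled, Ifi204, Ifi207 and Ifi211 were highest in monocytes. Mature neutrophils alone carried Ifi204 at 161 CPM in the control library and 52.9 in the MYC library, against 137 and 48.8 in monocytes. Ifi204 stood at 137 CPM in control monocytes and 35.3 in the control neutrophil lineage, followed by T or NK cells at 11.3, and at 48.8, 14.5 and 10.1 CPM in the MYC library. Its order of these 3 classes was the same in both libraries, but in the MYC library the intervals of the neutrophil lineage and T or NK cells overlapped. Ifi207 stood at 91.6 CPM in control monocytes and at 4.01 or less in the other 6 classes, and at 55.0 and at most 6.31 in the MYC library. Ifi211 stood at 75.5 CPM in control monocytes and at 7.39 or less in the other 6 classes compared, and at 31.1 in MYC-library monocytes, next to 18.7 for the B lineage. Monocytes held 69.6% of all Ifi207 UMIs and 75.5% of all Ifi211 UMIs of the control library, while they made up 8.46% of its cells and 14.5% of its UMIs.

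Ifi203, Mndal, Ifi209 and Ifi213 were shared by monocytes and lymphoid cells. Ifi203 reached 284 CPM in control T or NK cells and 266 in control monocytes, whose intervals overlapped, then 134 in the B lineage and 128 in stem or multipotent progenitors, which overlapped too. In the MYC library it stood at 225 CPM in T or NK cells, 111 in monocytes, 92.8 in progenitors and 75.8 in B-lineage cells. The intervals of the first pair no longer overlapped there. Mndal, named for its likeness to human myeloid nuclear differentiation antigen, followed nearly the same order, with 266 CPM in monocytes, 222 in T or NK cells, 143 in the B lineage and 110 in progenitors of the control library. In the MYC library Mndal stood at 199 CPM in T or NK cells, 123 in monocytes, 95.7 in progenitors and 88.9 in the B lineage. Monocytes, first in the control, thus stood below T or NK cells. The B-lineage values pool unlike stages. In mature B cells alone, Ifi203 stood at 288 CPM in the control library and 235 in the MYC library, and Mndal at 263 and 220. In plasma cells Ifi203 stood at 22.7 and 17.0 CPM, and Mndal at 41.8 and 33.5. Control levels of Ifi209 were 163 CPM (monocytes), 107 (B lineage) and 85.0 (T or NK cells), with no overlap, against 82.1, 36.9 and 50.5 CPM in the MYC library, in which the last pair overlapped. Ifi213 was the scarcest of the 8 genes and was highest in T or NK cells in both libraries, at 23.0 and 20.2 CPM, above monocytes at 14.3 and 2.05 CPM and the B lineage at 9.22 and 4.76 CPM.

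Aim2 was the most evenly spread. In the control library it stood at 59.5 CPM in basophils or mast cells and 49.7 in monocytes, whose intervals overlapped, then at 31.4 in T or NK cells, 24.2 in the B lineage, 21.9 in progenitors and 17.3 in erythroid cells, each overlapping the next, and at 13.6 in the neutrophil lineage. In the MYC library T or NK cells at 48.0 CPM, basophils or mast cells at 43.7, monocytes at 38.6 and progenitors at 30.2 formed an overlapping run, above the B lineage at 17.1, erythroid cells at 9.54 and the neutrophil lineage at 9.46. Between its highest and its lowest class Aim2 thus differed by a smaller fold than any other member, in both libraries.

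All 8 members had a lower level in monocytes of the MYC library. Together they stood at 1064 CPM in the 1248 control monocytes (18485 UMIs) and at 491 CPM in the 1629 monocytes of the MYC library (12438 UMIs), a log2 ratio of -1.11 (-1.15 to -1.08). Of the 8 genes 5 were called lower (Ifi203, Ifi204, Ifi211, Ifi213 and Mndal), and none was called higher, where 2.35% of all 11032 genes compared in monocytes were called lower; as the list was drawn up from this contrast, nothing is read from that count. The call ended for Ifi204 (-0.95) and Ifi211 (-0.92) with separate clustering of the libraries and for Mndal (-0.96) with median-of-ratios scaling. The median log2 ratio was -1.18 over the 8 genes and -0.13 over all genes.

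Among the myeloid members, Ifi204, the gene that led to the list, had 2379 UMIs in control monocytes and 1236 in those of the MYC library, or 137 and 48.8 CPM, a log2 ratio of -1.49 (-1.59 to -1.39). At least 1 Ifi204 UMI was seen in 64.9% (62.2 to 67.6) of control monocytes and 40.1% (37.8 to 42.6) of those of the MYC library, although the latter were deeper, with medians of 11513.5 and 13536 UMIs. With every cell thinned to 1000 UMIs, the shares were 14.2% and 6.03%. In erythroid cells, which are not known for Ifi204, 3.74% of control cells had a UMI at a median of 13188 UMIs and 2.07% of MYC-library cells at 8259.5, so the monocyte shares stood well above those in both libraries. Ifi211 stood at 75.5 and 31.1 CPM (log2 ratio -1.28, -1.41 to -1.15). Ifi207 differed less, with 91.6 and 55.0 CPM (log2 ratio -0.74, -0.84 to -0.63), and was not called.

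Of the members shared with lymphoid cells, Ifi203 stood at 266 CPM in control monocytes and 111 in those of the MYC library (log2 ratio -1.27, -1.33 to -1.20), and Mndal at 266 and 123 CPM (-1.12, -1.18 to -1.05). Ifi209, at 163 and 82.1 CPM, lay just short of the 2-fold limit, with a log2 ratio of -0.99 (-1.08 to -0.91). Ifi213 had the lowest ratio, with 249 control UMIs and 52 in the MYC library, or 14.3 and 2.05 CPM (log2 ratio -2.80, -3.26 to -2.37). Aim2, the inflammasome sensor, was nearest to even, at 49.7 and 38.6 CPM (-0.37, -0.50 to -0.23). Its interval did not overlap that of any of the other 7 members in monocytes.

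**Figure D2:**
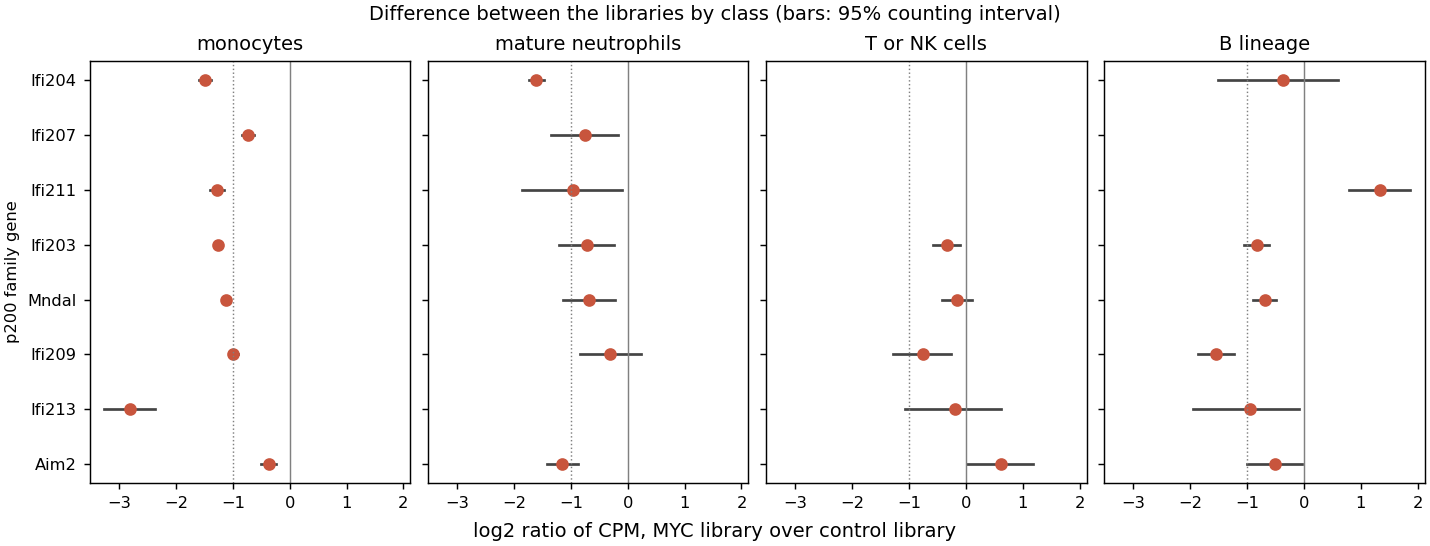
Log2 ratio of CPM, MYC library over control library, for each gene (rows) in 4 classes (panels); points are ratios, bars 95% counting intervals, the dotted line marks 2-fold lower, and genes with under 50 UMIs are left blank. All 8 monocyte ratios lie below 0, with Ifi213 lowest at -2.80, while Aim2 in T or NK cells and Ifi211 in the B lineage lie above 0.

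Monocytes formed 2 clusters, and both showed the difference. Cluster 12, whose cells were rich in mitosis transcripts (3458 and 3063 CPM over 8 genes), held 641 control and 972 MYC-library cells; cluster 10, low in them (279 and 375 CPM), held 607 and 657. In cluster 10 the family stood at 1706 and 757 CPM (log2 ratio -1.17, -1.22 to -1.12), and in cluster 12 at 746 and 391 CPM (-0.93, -0.98 to -0.89). The family was thus higher in the cluster low in mitosis transcripts, in both libraries. Ifi204 stood at 278 and 108 CPM in cluster 10 (-1.36, -1.49 to -1.23) and at 66.9 and 26.4 CPM in cluster 12 (-1.34, -1.51 to -1.18). Most Ifi213 UMIs of monocytes lay in cluster 10, with 227 and 37 UMIs there against 22 and 15 in cluster 12. Markers of the neutrophil lineage in monocytes summed to 10223 CPM (control) and 8756 CPM (MYC library), with 21 and 20 of 23 detected in 10% of cells, none at 0 UMIs. The monocytes' own 9 markers, all detected, summed to 7210 and 5397 CPM. The part of these in the p200 difference was not tested.

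An unnamed cluster led by Ace, Adgre4 and MHC class II genes (343 and 186 cells) also carried the family, at 1076 CPM (control) and 633 CPM (MYC library) (log2 ratio -0.77, -0.87 to -0.66). Ifi204 stood there at 202 and 74.0 CPM (-1.45, -1.75 to -1.16) and Ifi213 at 39.0 and 9.78 CPM, while Mndal (216 and 147 CPM) and Ifi203 (207 and 147 CPM) differed less than in monocytes. Macrophages were not compared, because the control held only 71 of them; 19 of these, but 624 of the 650 MYC-library cells, lay in a cluster led by C1q genes. In that cluster Ifi204 stood at 196 CPM (20 UMIs) and 94.4 CPM, and Ifi209 at 118 CPM (12 UMIs) and 111 CPM.

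In the neutrophil lineage Ifi204 had the most UMIs of the 8 genes in both libraries, 1853 of 3860 family UMIs in control cells and 750 of 2062 in MYC-library cells, and most of them lay in mature neutrophils. From granulocyte progenitors over immature to mature neutrophils, Ifi204 stood at 2.37, 9.44 and 161 CPM in control cells and at 1.37, 3.37 and 52.9 CPM in MYC-library cells. Its level thus was higher at each later stage in both libraries and lower in the MYC library at each stage, although the counting interval of the ratio in granulocyte progenitors (36 and 17 UMIs, -1.72 to 0.07) included 0. In immature neutrophils the log2 ratio was -1.49 (-1.85 to -1.14), with smaller differences within its clusters, -1.20 (18 and 10 UMIs) in cluster 6, -1.07 (232 and 75 UMIs) in cluster 7 and -0.89 (11 and 6 UMIs) in cluster 8, and in mature neutrophils, with 1556 and 642 UMIs, -1.61 (-1.74 to -1.48). Ifi207 was also highest in mature neutrophils, with 0.593, 0.832 and 6.12 CPM in control cells and 1.13, 1.41 and 3.63 CPM in MYC-library cells; the intervals of its first 2 stages overlapped in both libraries. Mndal and Ifi203 did not: over the 3 control stages Mndal stood at 22.0, 4.78 and 9.75 CPM and Ifi203 at 12.1, 3.08 and 8.81. Over the whole lineage (6827 and 5879 cells) Ifi204 stood at 35.3 and 14.5 CPM, and it alone of the 7 members with enough UMIs was called lower, where 1.73% of all 11769 genes were.

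Mature neutrophils held 2684 control and 2402 MYC-library cells. The family stood at 228 and 89.1 CPM there (log2 ratio -1.36, -1.47 to -1.25), and Ifi204 and Aim2 were called lower, 2 of 7 members, where 7.09% of all 8630 genes were. Aim2 stood at 31.8 and 14.3 CPM (-1.15, -1.43 to -0.88), unlike in immature neutrophils, where it stood at 5.14 and 5.04 CPM (-0.03, -0.38 to 0.32). The other 5 members with enough UMIs stood at 3.21 to 9.75 CPM (control) and 1.65 to 6.10 CPM (MYC library). An Ifi204 UMI was seen in 31.5% (29.7 to 33.3) of control mature neutrophils and 18.3% (16.8 to 19.9) of those of the MYC library, at medians of 3470.5 and 4953.5 UMIs, or in 12.5% and 4.34% at 1000 UMIs.

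Mature neutrophils of the libraries lay mostly in different clusters: clusters 0 and 1 held 1617 and 848 control cells against 195 and 104, and clusters 2 and 3 held 1295 and 808 MYC-library cells against 136 and 83. Within these clusters the differences of the family and of Ifi204 were smaller. The family's log2 ratio was -0.94 (-1.25 to -0.65), -0.57 (-0.96 to -0.21), -0.81 (-1.12 to -0.48) and -0.21 (-0.80 to 0.43) in clusters 0 to 3. That of Aim2 was -0.91 (-1.94 to -0.03), -0.44 (-1.35 to 0.36), -1.15 (-1.87 to -0.36) and 0.41 (-1.24 to 2.74), on 11, 14, 19 and 3 UMIs in the library with fewer. For Ifi204 every cluster was lower in the MYC library. Ifi204 stood at 166 and 66.9 CPM in cluster 0 (log2 ratio -1.31, -1.72 to -0.93), at 174 and 85.3 CPM in cluster 1 (-1.03, -1.63 to -0.49) and at 136 and 66.4 CPM in cluster 2 (-1.03, -1.41 to -0.65). In cluster 3 it stood at 42.5 CPM (18 UMIs) and 30.1 CPM (-0.50, -1.21 to 0.30), an interval that includes 0. With 1 CPM added to both levels, the log2 ratio of Ifi204 over the lineage was -1.22, and -1.09 without clusters mostly of 1 library. Separate clustering of the libraries gave -0.82, which ended the call. The mature neutrophils' lineage markers summed to 46813 CPM in control cells and 69300 CPM in MYC-library cells, and their monocyte markers to 788 and 956 CPM. Of the other marker lists, only that of nonclassical monocytes was also higher in the MYC library, at 75.6 and 90.9 CPM. The rest were lower, such as erythroid markers at 1772 and 1200 CPM, macrophage markers at 321 and 227, and B-lineage markers at 232 and 79.8. The part of all these in the Ifi204 and Aim2 differences was not tested.

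**Figure D3:**
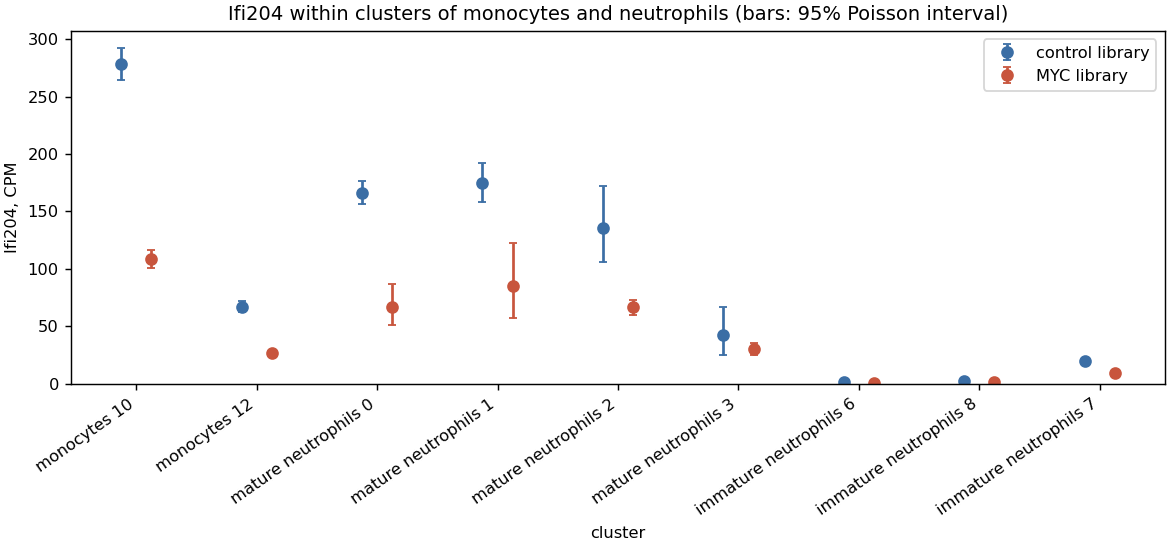
Ifi204 level in CPM (vertical axis, from 0) in 2 monocyte and 7 neutrophil clusters (horizontal axis), control library in blue and MYC library in red; bars are exact 95% Poisson intervals. The MYC library lies below the control in all 9 clusters, and the intervals overlap in mature neutrophil cluster 3 and immature clusters 6 and 8.

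No difference between classes could be tested, so the lymphoid cells and progenitors are given by their own values. In T or NK cells (391 and 147 cells, 1 cluster led by genes that include Cd3e and Cd3g), the family stood at 666 and 564 CPM, a log2 ratio of -0.24 (-0.39 to -0.09). None of the 5 members compared was called lower, where 3.77% of all genes were. Ifi203 stood at 284 and 225 CPM (-0.34, -0.58 to -0.10) and Ifi209 at 85.0 and 50.5 (-0.75, -1.27 to -0.26). Mndal stood at 222 and 199 CPM (-0.15, -0.41 to 0.10, but 0.0697 as a mean over cells). Ifi213, which had the lowest ratio of all members in monocytes, stood at 23.0 and 20.2 CPM (-0.19, -1.08 to 0.62), on 63 and 16 UMIs. Aim2 was higher in the MYC library, at 31.4 and 48.0 CPM (0.61, 0.02 to 1.18), on 86 and 38 UMIs. Neutrophil markers in these cells summed to 6236 and 5633 CPM and monocyte markers to 1001 and 639 CPM; their part in the Aim2 difference was not tested.

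In stem or multipotent progenitors (188 and 169 cells) Ifi203 and Mndal made up most of the family, at 128 and 92.8 CPM and at 110 and 95.7 CPM. Ifi204 had only 9 and 4 UMIs, and Ifi207 3 and 1. The family stood at 271 and 226 CPM, a log2 ratio of -0.26 (-0.40 to -0.12), and 0 of 3 members were called lower, where 1.39% of all genes were. Separate clustering of the libraries turned the direction, to 0.0445. Aim2 was higher in the MYC library, at 21.9 and 30.2 CPM (0.46, 0.03 to 0.90), but its log2 ratio was 0.0389 with each cell classified by its own marker scores.

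In the B lineage the mix of stages differed, with 483 B progenitors, 493 mature B cells and 251 plasma cells in the control against 18, 139 and 88. Ifi209 was called lower, at 107 and 36.9 CPM (-1.54, -1.86 to -1.23), and Ifi211 was called higher, at 7.39 and 18.7 CPM (1.34, 0.79 to 1.87), so that 1 of 7 members was called lower, where 17.9% of all genes were, and 1 higher, where 2.86% were. Both calls ended under an alternative, that of Ifi209 without clusters mostly of 1 library (-0.65) and that of Ifi211 as a mean over cells (0.44). Markers of monocytes, in which Ifi211 was highest, summed to 465 and 2620 CPM in the B lineage, with 3 and 6 of 9 detected in 10% of cells and none at 0 UMIs, and those of the neutrophil lineage to 3954 and 6317 CPM; within mature B cells the monocyte markers summed to 432 and 492 CPM. Their part in the Ifi211 difference was not tested. The stages differed in both genes. Control B progenitors carried 210 CPM of Ifi209 (805 UMIs), and within mature B cells Ifi209 stood at 133 and 102 CPM (-0.39, -0.78 to -0.01). Of the Ifi211 UMIs in the lineage, plasma cells held 57 of 85 (control) and 40 of 47 (MYC library), at 11.4 and 22.7 CPM (0.99, 0.37 to 1.60), with fewer than 100 plasma cells in the MYC library. Within mature B cells the family stood at 758 and 613 CPM (-0.31, -0.46 to -0.15).

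In erythroid cells (1123 and 532 cells) the family stood at 43.6 and 39.2 CPM, with an interval of the log2 ratio that included 0 (-0.16, -0.36 to 0.04), and 0 of 5 members were called lower, where 2.68% of all genes were. Aim2 stood at 17.3 and 9.54 CPM (-0.86, -1.26 to -0.48). In basophils or mast cells (187 and 144 cells), Aim2 stood at 59.5 and 43.7 CPM (-0.45, -0.93 to 0.02, but 0.048 as a mean over cells) and Mndal at 30.9 and 18.3 CPM (-0.76, -1.49 to -0.05), and 0 of 2 members were called lower, where 4.1% of all genes were. Plasmacytoid dendritic cells were too few to compare (237 and 57 cells); Ifi203 stood there at 234 and 92.0 CPM, Mndal at 209 and 134, and Ifi207 had 96 control UMIs and 1 in the MYC library. Over 7 classes, 37 of 56 pairs of a member and a class had enough UMIs, of which 7 were called lower, 5 of them in monocytes, and 1 was called higher. Of all genes, 1.39% to 17.9% were called lower, depending on the class, and 0.518% to 2.86% higher. As the list was drawn up from the monocyte contrast, nothing is read from these counts. The count called lower also changed with the processing, as given at the end.

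In the sum over all kept cells Ifi207 took the other direction than in monocytes. It stood at 19.1 and 21.3 CPM, a log2 ratio of 0.16 (0.07 to 0.25), against -0.74 within monocytes. Monocytes made up 8.46% of control cells and 13.1% of MYC-library cells, and macrophages, in which Ifi207 stood at 120 and 103 CPM, 0.481% and 5.23%. Macrophages held 1.88% of all control Ifi207 UMIs and 18.6% of those in the MYC library. The family over all kept cells stood at 305 and 201 CPM (-0.60, -0.63 to -0.58).

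Of 5 other genes of the block, 4 had enough UMIs in monocytes and 3 were called lower, where 2.35% of all genes were. These were Ifi206 at 13.7 and 1.86 CPM (log2 ratio -2.88), Ifi208 at 2.65 and 0.55 CPM (-2.26) and Ifi205 at 12.7 and 5.05 CPM (-1.32). Ifi214 stood at 20.1 and 10.6 CPM (-0.93). Ifi205 differed between the monocyte clusters, at 31.1 and 4.33 CPM in cluster 10 (-2.84) but at 3.53 and 5.32 CPM in cluster 12 (0.59, 0.05 to 1.16, on 41 and 98 UMIs). Ifi202b had 0 UMIs in both libraries. Of the windows near the 3′ end, Ifi205 shared 79.2% with Ifi211, Ifi214 63.4% with Ifi209 and Ifi208 12.6% with Ifi213. The levels of these genes are therefore uncertain and not independent of those of the members.

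Genes that act around the p200 proteins did not all differ between the libraries as they did. Of all genes compared in monocytes, 2.35% were called lower and 1.11% higher. Of 38 interferon response genes, 27 were called lower in monocytes and none higher (median log2 ratio -1.41), among them the antiviral gene Rsad2 at 29.6 and 3.32 CPM (-3.16), Ifit3b at 4.95 and 0.24 CPM on 86 and 6 UMIs (-4.38) and Ifi44 at 4.32 and 0.47 CPM (-3.19). Of 16 interferon receptor and signalling genes, 4 were called lower: these include Usp18 (19.5 and 4.78 CPM, -2.03) and Irf7 (60.4 and 21.8 CPM, -1.47), while the receptor chain genes Ifnar2 (176 and 152 CPM, -0.21) and Ifngr1 (212 and 235 CPM, 0.15) were near even. Of 18 genes of cytosolic DNA sensing, 0 were called lower (median -0.18, beside -0.13 over all genes). Cgas, the enzyme that makes the messenger of STING, stood at 39.9 and 32.8 CPM (-0.28) and Tmem173, which encodes STING, at 57.2 and 60.2 CPM (0.07).

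Inflammasome genes differed among themselves. Of 13 such genes, 2 were called lower in monocytes, where 2.35% of all genes were. These were the cytokine gene Il1b at 13.1 and 2.80 CPM (-2.23) and Naip5, which senses flagellin in another inflammasome than that of AIM2, at 28.9 and 11.6 CPM (-1.32). Pycard, which encodes the adaptor that AIM2 recruits, was higher in the MYC library at 289 and 512 CPM (0.82, 0.78 to 0.87), and Casp1 stood at 56.2 and 48.6 CPM (-0.21). In mature neutrophils Pycard stood at 22.8 and 85.4 CPM (1.91, 1.69 to 2.12), in the class where Aim2 was called lower and whose cells lay mostly in different clusters in the 2 libraries; values of Pycard within clusters were not computed. The interferon response list was not lower in step with the p200 calls in every class. In erythroid cells 16 of 34 of its genes were called lower (median -0.89), beside 2.68% of all genes and no p200 member. In basophils or mast cells 3 of 15 were, beside 4.1% of all genes and no member. T or NK cells, also without a p200 call, had 1 of 29 lower and 1 higher (median 0.11, beside -0.07 over all genes). There 3.77% of all genes were lower and 2.02% higher. In stem or multipotent progenitors 3 of 28 were called lower, beside 1.39% of all genes and no member. Where members were called, 14 of 36 were lower in the neutrophil lineage (1.73% of all genes) and 22 of 36 in mature neutrophils (7.09%). In the B lineage 7 of 30 were lower and 3 higher, beside 17.9% and 2.86% of all genes.

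The patterns of the members across classes were compared over 18 sums, 9 classes in 2 libraries (the neutrophil stages, mature B cells for the B lineage, and the other classes compared), as Pearson's r of log2(CPM + 1); these sums share libraries and their depth, and r is given as a description. Ifi203 and Mndal were nearest to each other (r = 0.985), and their promoters were identical at 94.3% of 299 aligned bases. Ifi209 was nearest to Ifi214 within the block (0.958, promoters 95.7% identical), and to Ms4a4c among all genes (0.978). The promoters of Ifi213 and Ifi208 were 98.9% identical (r = 0.915), and those of Ifi207 and Ifi211 87.5% (r = 0.763). Ifi209 and Ifi214 share 63.4% of the windows near their 3′ ends, Ifi213 and Ifi208 12.6%, and the gene models of Ifi203 and Mndal overlap. The part of read assignment in the r of these pairs was not tested. Ifi204 was least like Mndal (0.065) and Ifi203 (0.110), and most like Ifi207 (0.775) among the members.

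Among all genes whose mean reached 20 CPM, the pattern of Ifi204 was most like those of Lilra6 (0.921), Hgsnat (0.915) and Psap (0.884). Ifi207 was nearest to Fn1 (0.878), C1galt1c1 and F13a1, and Ifi211 to Klf4 (0.944), Pld4 and Ctss, of which Fn1, F13a1, Klf4 and Ctss are among the markers that named the monocytes. Ifi203 and Mndal shared Pou2f2 (0.931 and 0.937) as next gene after each other; the third was Camk2d for Ifi203 and Itpr1 for Mndal. Ifi213 was nearest to Zup1 (0.938), Ly9 and Nek7, and Ifi209, after Ms4a4c, to Ahnak and Camk2d. Aim2 was nearest to Ly6e (0.946), St8sia4 and Anxa6, and the family sum to Mef2d (0.903), Camk2d and Zup1.

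**Figure D4:**
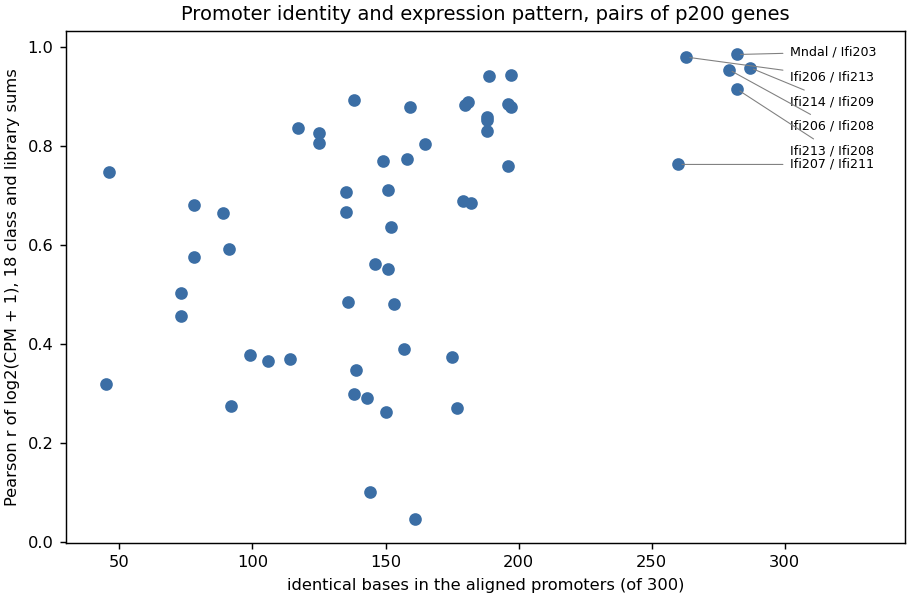
Each point is a pair of p200 genes with promoters in the table: horizontal axis, identical bases in the aligned promoters; vertical axis, Pearson r of log2(CPM + 1) over 18 class and library sums. The 6 labelled pairs with the most identical bases have r from 0.763 to 0.985, and the other pairs are spread widely in r. Some labelled pairs share 3′ sequence or have overlapping gene models.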

How the data were processed

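The 2 libraries of mouse bone marrow, 1 per genotype, were analysed from the deposited UMI counts, whole numbers for each gene in each barcode. Per the file headers, Cell Ranger 6.0.0 made them; the submitters' processing notes also name Seurat and GRCm38 (mm10). How barcodes were called as cells is not given in the sources used here. Cells with at least 500 UMIs, 200 genes and under 10% mitochondrial UMIs were kept. Doublets were scored per library with Scrublet in scanpy 1.11.5; the automatic threshold called 0 cells of the MYC library, so the control's threshold (0.309) was used for both and removed 701 (4.53%) and 462 (3.58%) cells. Both libraries were clustered together (Leiden, resolution 1, 2000 variable genes without p200, interferon and other list genes). A cluster took the name whose markers scored highest on average, given at least 3 detected markers, if its 10 leading genes bore it out; 1 cluster led by C1q genes took the next type. That step and the shared doublet threshold were set after the data were seen. Free RNA was not corrected.

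UMIs were summed per class and library and given as CPM with exact Poisson intervals; ratios have conditional binomial and shares Clopper-Pearson intervals, all at 95%. No test was run. Members and lists were chosen with earlier results of these data known. All 8 members were named; of each list, up to 3 of the lowest and 3 of the highest genes in monocytes were eligible, while Cgas, Tmem173, Casp1 and all genes named in other classes were chosen after their values were seen. Gene positions come from GENCODE vM21 of GRCm38, promoters from RefSeq. Some genes that the rule picked are left out of the text.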

Additional observations from a re-analysis of the deposited data

Results flagged for a closer look

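Ifi211 in the B lineage was higher in the MYC library (log2 ratio 1.34, 0.79 to 1.87, 85 and 47 UMIs, but 0.44 as a mean over cells), while in monocytes it was lower (-1.28). Monocyte markers in the B lineage summed to 465 CPM in control cells and 2620 CPM in MYC-library cells; their part in the difference was not tested. Aim2 was higher in stem or multipotent progenitors (0.46, 0.03 to 0.90, but 0.0389 with each cell classified by its own marker scores) and in T or NK cells (0.61, 0.02 to 1.18), while it was lower in monocytes (-0.37) and mature neutrophils (-1.15). The differences between classes were not tested.

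Barcodes left out for at least 10% mitochondrial UMIs also carried the family, at 383 CPM (364 to 402, 1609 barcodes) in the control and 340 CPM (323 to 357, 1600 barcodes) in the MYC library. Whether these barcodes carry it beyond free RNA was not tested.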

How the results depend on the processing

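The family's log2 ratio in monocytes (-1.11) was -1.20 at resolution 2, -1.18 with each cell classified on its own, -0.88 with each library clustered on its own, -1.18 with p200 and list genes among the variable genes, -1.25 with cells under 5% mitochondrial UMIs, -1.23 with at least 1000 UMIs, -0.97 after median-of-ratios scaling, -1.17 when cells' CPM were averaged and -1.23 without the 20 most abundant genes. All 104 values of single members in monocytes kept their direction, but with each library clustered on its own Ifi204 (-0.95) and Ifi211 (-0.92), and with median-of-ratios scaling Mndal (-0.96), lost the call. In the neutrophil lineage (-0.88) the family stood at -0.67, -0.52, -0.65, -0.68, -0.71, -0.61 and -1.10 under resolution 2, single-cell classification, separate clustering, the 5% limit, 1000 UMIs, median-of-ratios scaling and the mean over cells, and at -0.64 without clusters mostly of 1 library; 84 of 91 member values kept their direction. In stem or multipotent progenitors (-0.26) it was 0.0445 with separate clustering, -0.45 with doublets kept and -0.49 under the 5% limit; resolution 0.5 and 1000 UMIs gave no cluster of that name. The count of member and class pairs called lower (7 of 37) was 4 of 41 with separate clustering and 12 of 41 under the 5% limit. The cause was not tested. Median-of-ratios scaling shifted every gene by 0.15 in monocytes, 0.27 in the neutrophil lineage and 0.12 in progenitors.

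In the B lineage Ifi209 lost its call without clusters mostly of 1 library (-0.65) and Ifi211 as a mean over cells (0.44); in erythroid cells 48 of 59 member values kept their direction, in T or NK cells 64 of 65, and in basophils or mast cells 25 of 26. Depth limits Ifi213 in most classes, and Ifi204, Ifi207 and Ifi211 outside myeloid cells. No paired analysis was possible because each genotype has 1 library.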
